A study of Mus musculus with 5 samples.

Results

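The genes described here encode the receptors of the myeloid growth factors: Csf1r, Csf2ra, Csf2rb, Csf2rb2 and Csf3r. These 5 genes were taken by name from 21883 protein-coding genes, by a rule that uses no measured value, although earlier results of these data were known when they were chosen. H3K27ac, the acetylation of histone H3 at lysine 27 that marks active promoters and enhancers, was mapped by ChIPmentation, in which Tn5 transposase tags antibody-bound chromatin. The cells were mouse bone marrow cells sorted as CD45.2+ Lineage- Sca1+ Kit+ (LSK), a population labelled HSC/MPP for stem cells and multipotent progenitors, and they carried the genotype Mll3/4 deleted. All 4 H3K27ac libraries and the 1 input library shared that genotype, so no library with intact Mll3 and Mll4 was compared. How the deletion was made, and whether the libraries came from separate mice, is not given in the sources used here.

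The 4 libraries were represented by 1 pooled list of 22948 peaks called over input. Each peak had the authors' signal value (a ratio of H3K27ac over background), a −log10 p and a −log10 q. The list held no value of a single library, so no replicate error, no test and no comparison of genotypes could be had, and the read depth is unknown. The median signal value was 3.27 and the median peak width 854 bp. Over all protein-coding genes, 36.2% had a peak within 1 kb of a gene end. Of the markers of the sorted cells, 5 of 9 had one (Kit, Ptprc, Flt3, Meis1 and Slamf1), and Ly6a, which encodes Sca1, had none there. A peak at an end was also found for 5 of 6 B-cell markers, 1 of 4 T-cell markers and 1 of 5 erythroid markers. Of 8 myeloid markers (Itgam, Ly6g, Mpo, Elane, Lyz2, Cd14, Fcgr3 and Adgre1), 0 had one. The Lineage- gate is meant to leave out mature cells, and the part of B-lineage cells in the peaks described below was not tested.

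Growth factor receptors couple a secreted ligand to the survival and maturation of myeloid cells. The GM-CSF receptor pairs a ligand-specific alpha chain, encoded by Csf2ra, with the common beta chain encoded by Csf2rb, which also serves the receptors of IL-3 and IL-5. Mice carry a further beta chain gene, Csf2rb2, whose product works with the IL-3 receptor alpha chain Il3ra and lies beside Csf2rb. Csf3r encodes the G-CSF receptor of the neutrophil lineage, and Csf1r the receptor tyrosine kinase of monocytes and macrophages that binds CSF-1 and IL-34. The GM-CSF, IL-3 and IL-5 receptors signal through Jak2, which is bound by the beta chain, and Stat5. The main STAT of the G-CSF receptor is Stat3.

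The RefSeq promoter table (GRCm38.p6, from 250 bases before to 50 bases after a gene start) held 3 of the 5 receptor genes, Csf2ra, Csf3r and Csf2rb2. Their promoters are shown, with that of the partner chain gene Il3ra chosen after its values were seen, so that their CpG content can be set beside the share of all genes with a peak. Each is written from 5′ to 3′ on the strand of its gene, and capitals mark CpG dinucleotides. Csf2ra lies on the minus strand at chr19:61228369-61228668, Csf3r on the plus strand at chr4:126024409-126024708, Csf2rb2 on the minus strand at chr15:78305672-78305971 and Il3ra on the plus strand at chr14:14346245-14346544.
Csf2ra: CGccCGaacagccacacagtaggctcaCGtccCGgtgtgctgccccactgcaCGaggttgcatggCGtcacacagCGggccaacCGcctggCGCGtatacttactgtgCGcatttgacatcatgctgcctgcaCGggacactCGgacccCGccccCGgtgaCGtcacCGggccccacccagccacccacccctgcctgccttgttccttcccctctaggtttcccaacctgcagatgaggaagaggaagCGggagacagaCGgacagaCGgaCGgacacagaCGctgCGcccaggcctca
Csf3r: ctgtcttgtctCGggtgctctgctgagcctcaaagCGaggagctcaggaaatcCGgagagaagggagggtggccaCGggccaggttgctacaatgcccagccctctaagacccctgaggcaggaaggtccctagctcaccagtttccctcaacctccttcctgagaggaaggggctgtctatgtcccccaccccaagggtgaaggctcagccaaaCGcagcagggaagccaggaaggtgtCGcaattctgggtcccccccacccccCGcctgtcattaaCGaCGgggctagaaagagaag
Csf2rb2: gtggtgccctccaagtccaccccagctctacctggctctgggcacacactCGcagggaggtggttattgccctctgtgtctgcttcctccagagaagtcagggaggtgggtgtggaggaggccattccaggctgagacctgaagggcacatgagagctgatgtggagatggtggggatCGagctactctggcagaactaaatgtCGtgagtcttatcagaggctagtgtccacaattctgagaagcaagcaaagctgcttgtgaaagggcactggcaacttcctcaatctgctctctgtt
Il3ra: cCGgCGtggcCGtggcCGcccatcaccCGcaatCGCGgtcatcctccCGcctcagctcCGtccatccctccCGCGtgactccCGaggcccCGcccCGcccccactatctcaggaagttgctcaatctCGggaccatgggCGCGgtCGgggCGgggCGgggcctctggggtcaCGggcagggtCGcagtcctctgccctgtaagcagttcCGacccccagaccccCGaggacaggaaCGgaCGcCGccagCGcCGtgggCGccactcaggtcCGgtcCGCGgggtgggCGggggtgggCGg

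Among the receptor genes, Csf2ra was alone in having a peak at an end. Peaks within 1 kb of either end were found at 1 of the 5 genes, against 36.2% of all protein-coding genes. With summits in the gene body the count was also 1 of 5, against 38.0% of genes, and it was the same peak. A summit within 50 kb outside the gene was found for 1 of 5, Csf1r, against 60.6% of genes. Csf2rb, Csf2rb2 and Csf3r had no peak at an end, in the body or within 50 kb, a state shared by 31.4% of all genes. With 5 genes, these counts do not set the receptors apart from genes in general.

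The Csf2ra peak lay on chromosome 19 from 61225453 to 61228301, inside the gene, which spans 61217191 to 61228461 (gene ID 12982). Its signal value was 9.12 and its −log10 q 30.26. In signal it ranked 801 of the 22948 peaks, at percentile 96.5, and its width of 2849 bp was at percentile 93.8. Among genes with a peak at an end, the median of the strongest signal value was 4.71 (interquartile range 3.52 to 6.55), and Csf2ra stood at percentile 90.8 of them. It was the last peak of the list on chromosome 19, with 0 peaks between Csf2ra and the high end of the chromosome.

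The gene start of Csf2ra in the promoter table is base 61228418. The summit of the peak lay 677 bp downstream of it, and the upstream edge of the peak 117 bp downstream. The printed promoter was therefore not covered by the peak, whose edge was 68 bp past the last base of that stretch. Over the 5219 genes with a single start in the table and a peak within 1 kb of it, 70.7% of summits lay downstream of the start, with a median position of 289 bp downstream. The Csf2ra summit was at percentile 88.9 of these positions. In 1699 of these genes (32.6%), as at Csf2ra, no peak overlapped the promoter stretch.

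**Figure D1:**
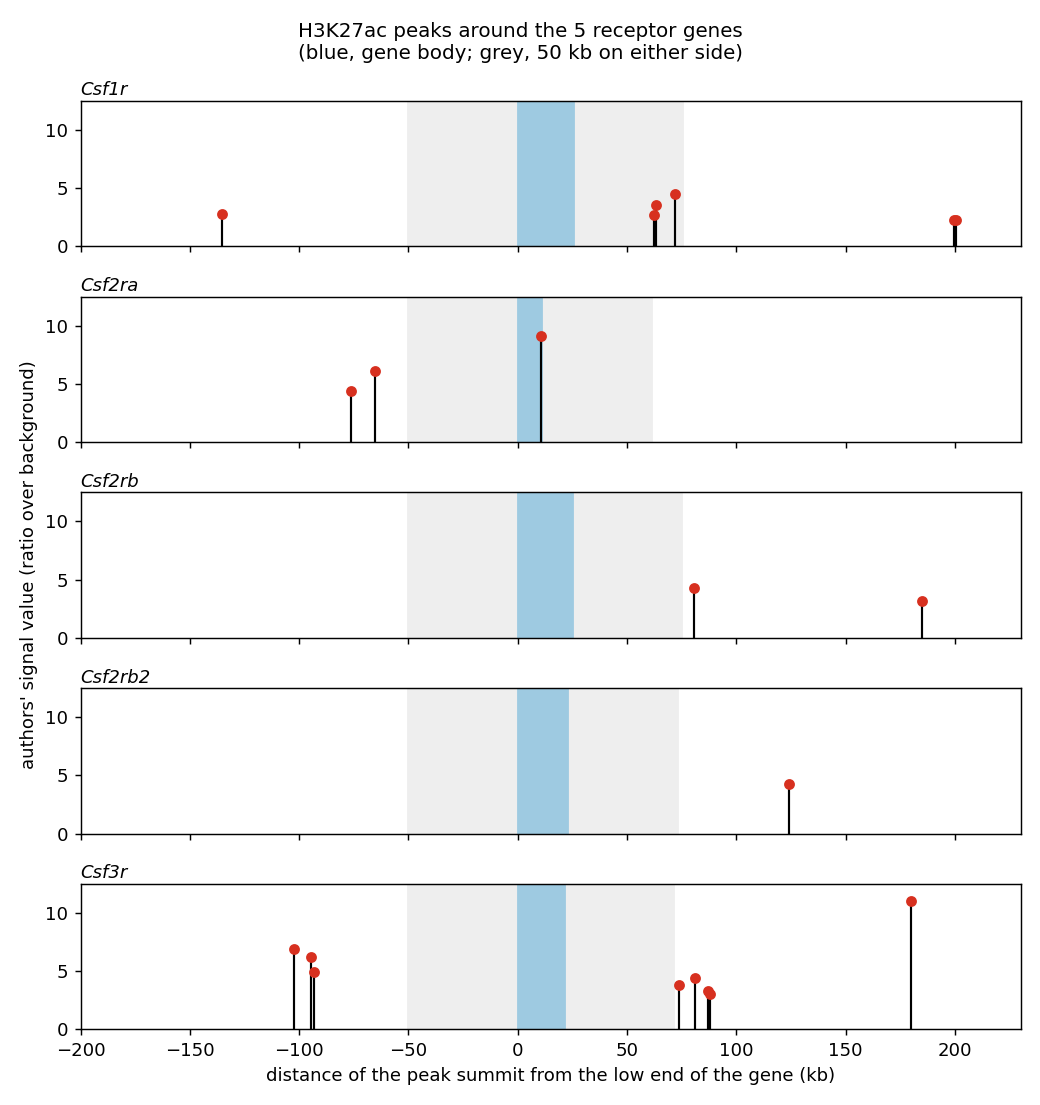
H3K27ac peak summits within 200 kb of each receptor gene, by distance from the low-coordinate end of the gene (kb, x axis) and by the authors' signal value (y axis); blue marks the gene body and grey the 50 kb on either side. The Csf2ra summit, with a signal value of 9.12, is the only one inside a gene body, and 3 summits lie in the grey zone of Csf1r.

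The Csf2ra promoter held 23 CpG dinucleotides, at percentile 72.2 of the 17491 promoters of protein-coding genes, whose median was 13. Csf3r held 9 (percentile 41.8) and Csf2rb2 held 3 (percentile 22.1). Of the partner alpha chain genes, Il3ra held 35 (percentile 91.8) and Il5ra, which had no peak at its start, held 4 (percentile 27.1). These few promoters are given as a description. Of promoters with 20 or more CpG, 62.8% had a peak within 1 kb of the start. The share was 49.2% with 10 to 19, 23.3% with 5 to 9 and 6.14% with 0 to 4. Over all 17491 genes it was 38.0%. Csf3r, Csf2rb2 and Il5ra, without a peak, fell in classes where most genes had none, and Csf2ra and Il3ra fell in the class where most genes had one. Il3ra was chosen after its values were seen, and a part of CpG content in these peaks was not tested. No CpG count was made for Csf1r and Csf2rb.

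**Figure D2:**
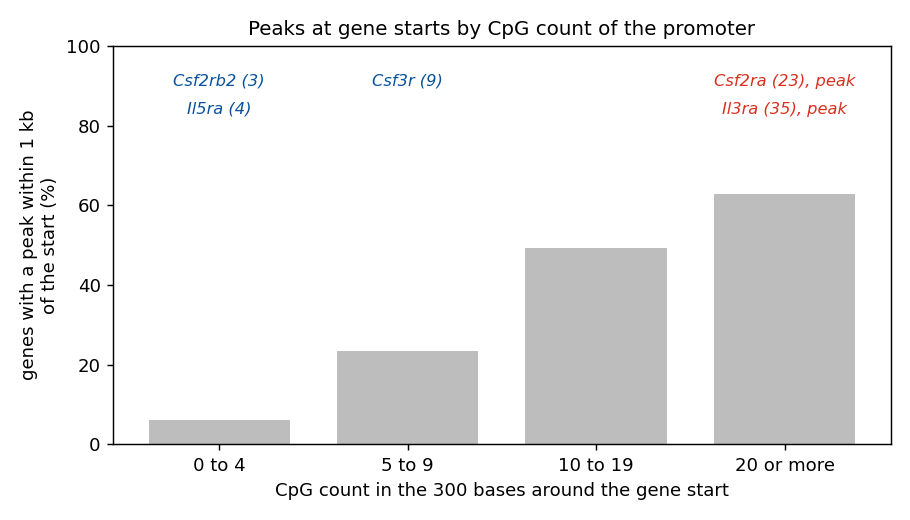
Share of protein-coding genes with an H3K27ac peak within 1 kb of the start (%, y axis) by the number of CpG dinucleotides in the 300 bases of the promoter (x axis). Names give the class of Csf2ra, Csf3r, Csf2rb2, Il3ra and Il5ra with the CpG count in parentheses, red with a peak and blue without. Csf1r and Csf2rb are not shown, and the shares run from 6.14% to 62.8%.

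Letters known from the binding sites of myeloid factors were counted in the same promoters on both strands. The ETS letters GAGGAA, the core read by PU.1, stood 2 times in direct succession in the Csf2ra promoter, starting 14 and 8 bases before the gene start. They stood once in that of Csf3r, 86 bases before the start, and 2 times on the other strand in that of Csf2rb2, starting 167 bases before and 29 bases after the start. The Il3ra promoter held 0 matches and that of Il5ra 1. Of all promoters, 27.5% held these letters. The RUNX letters TGTGGT, held by 15.1% of promoters, were in none of these 5 promoters. The C/EBP letters TTNNGNAA, held by 37.8%, occurred 1 time at Csf2ra, 0 times at Csf3r and Il5ra, 1 time at Il3ra and 2 times at Csf2rb2, where 1 match overlaps an ETS match. Promoters with and without a peak nearby both included some with ETS letters, and Il3ra, chosen after its values were seen, had a peak without them. A link between these letters and peaks was not tested.

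The beta chain genes, Csf2rb for the shared chain and Csf2rb2 for the IL-3 receptor alone, lie side by side on chromosome 15. Csf2rb2 runs from 78282507 to 78305721 (gene ID 12984) and Csf2rb from 78325800 to 78351001 (gene ID 12983), with 20.1 kb between them. Neither had a peak at an end, in the body or within 50 kb. Both lay in the same stretch without any peak, 434.4 kb long from 77971849 to 78406219. The median stretch between neighbouring peaks was 20.6 kb, and this one was at percentile 95.3. A stretch picked because it holds a whole gene without peaks is long by selection, so this rank says little about the genes. By distance to the nearest summit, Csf2rb stood at percentile 69.7 and Csf2rb2 at percentile 77.0 of all protein-coding genes. The stretch held 8 protein-coding genes in full, including Ncf4, a subunit of the phagocyte NADPH oxidase, and the sulfurtransferase gene Tst. The nearest summit, 55.4 kb from Csf2rb and 100.6 kb from Csf2rb2, belonged to a peak with a signal value of 4.25 (78406220 to 78407284) at the facing ends of Tst and Mpst. The beta chain genes are known as close copies of each other, though their sequences were not compared here. How reads that match both were mapped is not given in the sources used here, and its part in the missing peaks was not tested.

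Csf3r, on chromosome 4 from 126023441 to 126044975 (gene ID 12986), also lacked peaks. Its nearest summits were 93.1 kb away on the low side, which is upstream of this plus-strand gene, and 52.0 kb away on the high side. The stretch without peaks was 165.0 kb long (percentile 87.8, again long by selection). In distance to the nearest summit, Csf3r stood at percentile 69.1 of all protein-coding genes. The stretch also held Mrps15, a mitochondrial ribosomal protein gene 1.95 kb from Csf3r, and Oscp1. Mrps15, a gene used by nearly all cells, had no peak at an end or in its body. A missing peak says only that none passed the authors' calling in this list.

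Csf1r lies on chromosome 18 from 61105572 to 61131139 (gene ID 12978) and had no peak at an end or in its body, which in known biology holds an intronic enhancer of the gene. It lay in a stretch without peaks of 196.2 kb (percentile 89.6, again long by selection) that held 5 protein-coding genes in full. In distance to the nearest summit, Csf1r stood at percentile 64.7 of all protein-coding genes. Of its 3 summits within 50 kb, all on the high side, the nearest was 36.6 kb away. These peaks ran from 61167506 to 61167831 with a signal value of 2.69, from 61168125 to 61169515 with 3.52, and from 61176382 to 61177917 with 4.53. The first of them had a −log10 q of 1.67 and stood at percentile 25.5 of the list in signal. The count fell from 3 to 1 when −log10 q had to reach 5, and likewise when the signal value had to reach 4. The weaker pair lay inside Hmgxb3, a gene whose low end is 138 bp from the high end of Csf1r, and the strongest was at the high ends of Hmgxb3 and LOC108168367. None of the 3 had Csf1r as its nearest protein-coding gene, so Csf1r kept 0 peaks when each peak was given to the nearest gene. The flanking count of the receptors was then 0 of 5, against 14.7% of all genes. It was 0 of 5 with 25 kb (45.5% of all genes) and 4 of 5 with 100 kb (73.2% of all genes). The related receptor gene Pdgfrb, 20.5 kb away on the other side, had no peak at an end, in its body or within 50 kb.

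Of the 9 other protein-coding genes within 50 kb of a receptor gene, 3 (33.3%) had a peak at an end, close to the 36.2% of all protein-coding genes: Hmgxb3, LOC108168367 and Tst. The others were Pdgfrb, Gm7102, Tex33, Ncf4, Mrps15 and Oscp1. Around Csf2ra, Gm7102 was the only neighbour, 40.9 kb away.

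Among the 12 partner and related receptors, 4 had a peak at an end: Il3ra, Kit, Flt3 and Il7r. This share of 33.3% was close to the 36.2% of all protein-coding genes. Il3ra, which encodes the IL-3 receptor alpha chain, had a peak on chromosome 14 from 14345907 to 14347249 over its start with a signal value of 10.84 and a weaker one in its body with 3.00. Il5ra, the alpha chain of the IL-5 receptor, had none at an end or in its body. Its strongest peak within 50 kb had a signal value of 11.96, lay 45.1 kb away and was nearest to Crbn. Of the chains of the GM-CSF, IL-3 and IL-5 receptors, the alpha chain genes Csf2ra and Il3ra were therefore marked at an end, while Il5ra, Csf2rb and Csf2rb2 were not. By the numbers of peaks at the ends, in the body and within 50 kb and the log2 of the strongest signal value, the receptor most like Csf2ra was Il3ra (summed difference 1.25), followed by Il6ra (3.71). Those most like Csf1r were Il6st (0.28) and Epor (0.48), which like Csf1r had 3 summits within 50 kb and no other peak. The Epor peaks lay at the ends of other genes, and no Csf1r peak had Csf1r as its nearest gene. At Il6st the strongest, with a signal value of 5.51, was nearest to Il6st itself. The likeness is thus one of counts and signal values only, and its measure used the 1 pooled list.

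Csf1r belongs to the same receptor tyrosine kinase class as Kit, the stem cell factor receptor, and Flt3. Kit had 2 peaks at its ends, the strongest with a signal value of 5.66, and 16 summits in its body. Flt3 had 1 peak at an end (6.58), 4 summits in its body, the strongest of them with 13.26, and 7 within 50 kb, all nearest to Pan3. Il7r, the receptor of a lymphoid cytokine, had a peak with a signal value of 11.2 at an end. It had 11 summits within 50 kb, most of them nearest to Capsl or Spef2. Of this class, Pdgfra and Pdgfrb had no peak in reach, like Csf3r and the beta chain genes. Epor, the erythropoietin receptor, had 3 summits within 50 kb, all of peaks at the ends of other genes, and no peak at its own ends or in its body.

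**Figure D3:**
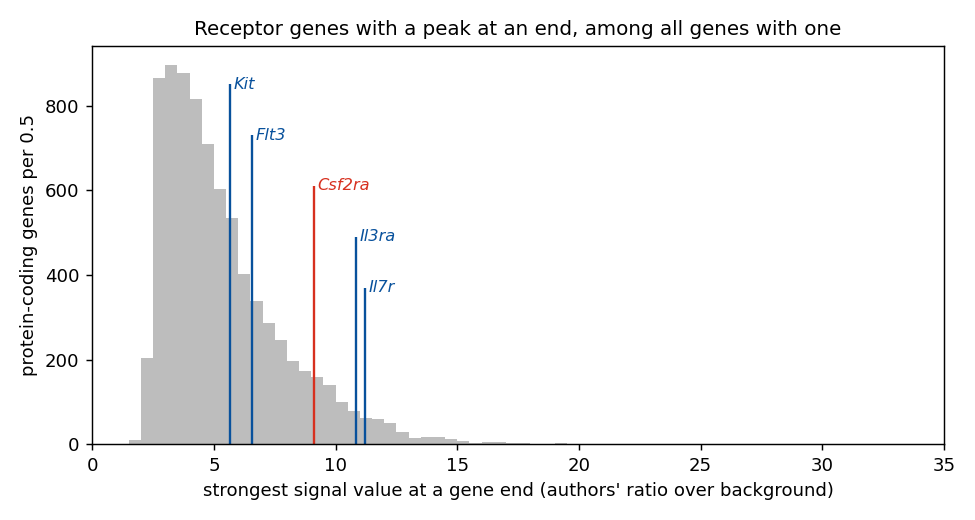
Strongest signal value at a gene end (x axis, the authors' ratio over background) for all protein-coding genes with a peak there (grey bars, number of genes per bin of 0.5, y axis). Vertical lines, whose heights only space the names, mark Csf2ra in red at 9.12 and the related receptors in blue, from Kit at 5.66 to Il7r at 11.2.

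Of the ligands, 1 of 6 (16.7%) had a peak at an end, against 36.2% of all protein-coding genes. Csf1, which encodes CSF-1, had a peak with a signal value of 4.22 at an end. Il34, Csf3 and Il5 had summits within 50 kb only, and the strongest of these peaks lay nearest to other genes, Sf3b3, Psmd3 and Irf1. Csf2 and Il3, which encode GM-CSF and IL-3 and are neighbours on chromosome 11, had their nearest summits 189 kb and 171 kb away.

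Of the 25 genes listed for signalling downstream of the receptors, 18 (72.0%) had a peak at an end, against 36.2% of all protein-coding genes, and the median of their strongest signal values was 4.77. This list too was drawn up with earlier results of these data known. Of the 25, 0 lacked a peak at an end, in the body and within 50 kb, against 31.4% of all genes. The strongest was at Inpp5d, the SHIP1 phosphatase that restrains PI3-kinase signals, with 11.97 and 10 summits in the body. Stat3, the main STAT of the G-CSF receptor, had 9.80 and Jak1 had 7.81. Jak2, the kinase bound by the beta chain, had 5.32 at an end, and Lyn, a Src-family kinase, had 6.67. Stat5a and Stat5b shared a weak peak near their adjoining ends, with a signal value of 2.45 and a −log10 q of 0.80, and their strongest body peaks had signal values of 4.37 and 5.69. Genes with no peak at an end included Tyk2, Socs3, Cish, Gab3, Ptpn6 and Plcg2. With −log10 q of at least 5 the count was 11 of 25, and 24.0% of all genes then had a peak at an end.

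Among 15 factors known to act at the receptor genes, 7 (46.7%) had a peak at an end, against 36.2% of all protein-coding genes. Runx1 had the strongest, with a signal value of 10.1 and 20 summits in its body, followed by Myb with 5.39. Cbfb, the partner of Runx1, had 4.37, Klf4 4.28, Gfi1 4.25 and Spi1, which encodes PU.1, 4.11, with another 5.26 inside the gene. Egr1 had 3.95. Cebpa, whose product drives Csf3r in granulocyte progenitors, had no peak in reach, its nearest summit being 63.6 kb away, and Ets2 and Mitf had none either. Cebpb, Cebpe and Egr2 had summits within 50 kb only. Irf8 had 1 and Fli1 had 17 in the body. Over the 58 genes of these lists, 30 had a peak at an end, or 51.7%, against 36.2% of all protein-coding genes.

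**Figure D4:**
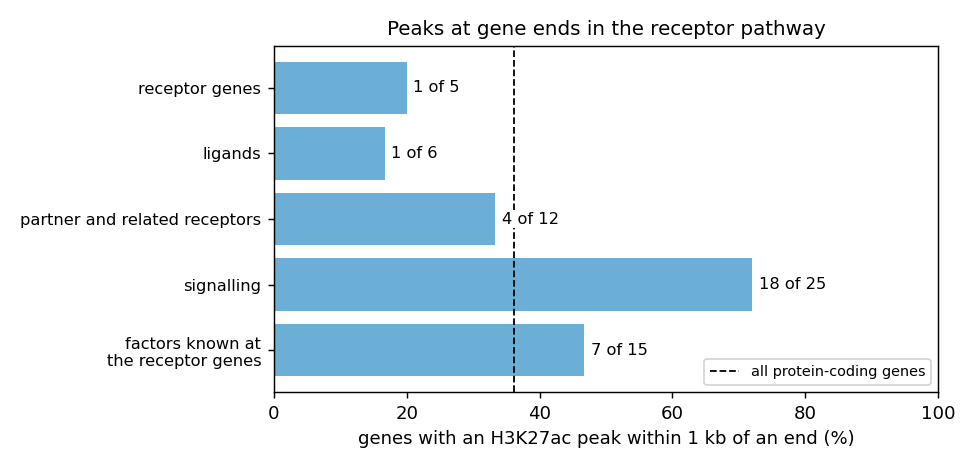
Share of genes with an H3K27ac peak within 1 kb of an end (%, x axis) for the 5 receptor genes and the lists of their ligands, related receptors, signalling genes and factors, with counts beside the bars. The dashed line marks the 36.2% of all protein-coding genes; 18 of the 25 signalling genes and 1 of the 5 receptor genes had such a peak.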

How the data were processed

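H3K27ac was measured in 4 libraries with 1 input library of Mll3/4-deleted LSK cells. Per the submitters' processing notes, BWA and MACS2 were used with build mm10, and their versions and settings are not given in the sources used here. The authors deposited 1 peak list without a header. Its score column, as deposited by the authors, was not used. The signal value was taken to be the authors' ratio of H3K27ac over background, the usual content of this column, and further columns gave the authors' −log10 p and −log10 q. The lowest −log10 p was 2.01, and 4859 peaks (21.2%) had a q-value above 0.05. Total read counts are unknown.

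Genes were the 21883 protein-coding genes of the RefSeq table of GRCm38.p6 on chromosomes 1 to 19, X and Y. The table gives no exons, so peaks were not placed in exons, introns or UTRs. Coordinates are 1-based. A peak was at an end when it reached into the 1 kb on either side of a gene end; body and flank used the summit. Gene starts came from the RefSeq promoter table, which held 17491 of these genes; the first row of each gene was used for CpG and motif counts. Percentiles count ties by the midpoint and describe this list. Counting was tested on simulated peaks. Python 3.11.15, numpy 2.4.6 and pandas 2.3.3 were used.

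The members and lists were chosen with earlier results of these data known. Named were all 5 receptors, their peaks and neighbours within 50 kb, the pathway lists (of which some members are not reported by name here) and, as most alike, the 2 related receptors with the smallest summed difference. Tried instead were peaks with −log10 q of at least 5, with q of at most 0.05 or with a signal value of at least 4, 2.5 kb at ends, summits at ends, starts only, 25 kb and 100 kb flanks, nearest genes only, and any overlap with the body.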

Additional observations from a re-analysis of the deposited data

How the results depend on the processing

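Of 97 recomputed values, 79 kept their count within 1.5 times or, for a value, did not move, and 18 moved. Some of the 79 could not have moved, because genes with 0 peaks stay at 0 under stricter settings. The Csf2ra peak, with a signal value of 9.12 and a −log10 q of 30.26, passes every cut used. The tally is therefore not a measure of robustness. The count of receptor genes with a peak at an end, and with one in the body, was 1 of 5 in all alternatives run. The count with a summit within 50 kb outside the gene was 0 with 25 kb, 4 with 100 kb and 0 with nearest genes only, where 45.5%, 73.2% and 14.7% of all genes had one. The pathway genes with a peak at an end ranged from 22 with a signal value of at least 4 to 32 with 2.5 kb, against 30. The share of all genes with a peak at an end ranged from 23.2% to 39.3%. For starts only, 3 of the 5 receptor genes had a known start. The pooled peaks carry no per-library values, so no library could be left out. No paired analysis was possible because the peaks used here pool the replicates. With the depth unknown, how many weak peaks were missed was not measured.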

Other observations

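Beyond 50 kb, the peaks nearest to Csf3r on its upstream side formed a group of 3 on chromosome 4. They ran from 125918556 to 125923189 (signal value 6.90), from 125926294 to 125929400 (6.24) and from 125929709 to 125931776 (4.96), with summits 102.4, 94.7 and 93.1 kb from the gene. Their widths were 4634, 3107 and 2068 bp, all above the median of the list. Csf3r was the nearest protein-coding gene of all 3, and none lay at an end or in the body of a protein-coding gene. On the other side, the 4 peaks within 100 kb, with signal values of 3.06 to 4.36, lay at or inside Lsm10 and Stk40. Csf2ra had 2 further peaks within 100 kb, at 65.1 kb (signal value 6.12) and 76.1 kb (4.35), both nearest to Zfp950, a zinc finger gene. These peaks were singled out after their values were seen, and the list does not tie them to a target gene.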
